A study of Xenopus laevis with 8 samples.

Results

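The gene dot1l was followed in whole brains of Xenopus laevis tadpoles. The genes of 6 proteins linked to its product, called partners below, were followed with it: mllt1, mllt3, mllt6, mllt10, aff1 and aff4. Xenopus laevis is allotetraploid, and most genes have an L and an S homeologue that were counted apart. A row of the count table was taken as a member when its symbol, without the final .L or .S, was one of these 7 names. This gave 13 of the 41881 genes, because 6 of the names had both homeologues and aff1 had a row for the L copy alone. All 13 had enough counts to be tested, as did 25171 genes in all.

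The CRISPant group was made by injecting eggs at the one cell stage with Cas9 protein carrying a guide RNA that shifts the reading frame of neurod2 in both homeologues. Its F0 tadpoles carry the edit in only a part of their cells. The control group received Cas9 with no guide and is labelled wild type. All animals were siblings of a single sibship raised to stage NF 47, and each sample is a pool of 4 brains, with 4 CRISPant pools (numbered 3, 4, 7 and 9) and 4 control pools (numbered 1, 2, 4 and 5), and p-values therefore reflect variation among sibling pools only.

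Total counts ranged from 18945762 to 25509904 in CRISPant pools and from 20985937 to 25937707 in control pools. Levels are given as counts scaled to the depth of each library (CPM), normalised by TMM. The targeted gene had 18.98 to 31.1 CPM for neurod2.L in CRISPant pools, against 32.9 to 38.6 CPM in control pools, and neurod2.S had 26.7 to 45.7 CPM against 40.3 to 52.2 CPM. All 10 neuronal markers looked for were found, with summed levels of 7294 to 8017 CPM in CRISPant pools and 7415 to 7733 CPM in control pools. Of their 18 tested genes 5 were lower and 3 were higher. Here and below, lower and higher mean an adjusted p under 0.05 in edgeR. Over all tested genes 20.8% were lower and 21.7% were higher, and each marker count stands beside these shares. Of 6 skin markers looked for, only 3 had a row (the keratin krt12.4, grhl3 and tp63). These summed to at most 0.833 CPM in CRISPant pools and 1.16 CPM in control pools. Markers of cycling cells moved with the groups: all 13 tested were higher, and their sum was 958 to 1220 CPM in CRISPant pools against 423 to 522 CPM in control pools. Of 19 tested markers of neural progenitors 10 were higher and none was lower, with sums of 3047 to 3516 CPM in CRISPant pools against 2477 to 2840 CPM in control pools. Markers of microglia, macrophages and leukocytes had 4 of 7 lower and none higher, with sums of 6.63 to 10.3 CPM in CRISPant pools against 14.1 to 19.5 CPM in control pools. Of 7 tested markers of radial glia and astroglia 4 were lower and 1 was higher, with sums of 1519 to 1603 CPM in CRISPant pools against 1719 to 1895 CPM in control pools. Markers of meninges, fibroblasts and cartilage had 5 of 13 higher and 3 lower. Their sums were 316 to 379 CPM in CRISPant pools against 249 to 335 CPM in control pools. Oligodendrocytes had 1 of 10 higher and 3 lower, and endothelium 1 of 12 higher and 3 lower. Erythrocytes had 2 of 10 higher, skeletal muscle 1 of 6, and neither had any lower. The part of any of these in the results below was not tested, and in whole brains fewer cells of a type and less RNA per cell cannot be told apart.

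Dot1l is the methyltransferase that places methyl groups on lysine 79 of histone H3, a mark of transcribed genes. In mammals it works with AF10 and AF17, the products of mllt10 and mllt6, and with AF9 and ENL, the products of mllt3 and mllt1. AF9 and ENL read acylated histone lysines through a YEATS domain. Another part of these proteins binds either Dot1l or the scaffolds AFF1 and AFF4, which build the super elongation complex around the kinase P-TEFb. In the developing mouse cortex, DOT1L is known to keep progenitors dividing.

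dot1l was chosen by its values in these pools: by p from edgeR, dot1l.L was number 4 and dot1l.S number 7 among the genes that were lower in CRISPant brains. The partners were listed for their known association with it, when the results of all genes were already known. The change between the groups is therefore a description for all 13 genes, and no p is attached to a member. A gene is called higher or lower where its adjusted p was under 0.05 in edgeR's quasi-likelihood test over all 25171 genes. Of all genes tested, 42.4% were called, 20.8% as lower and 21.7% as higher.

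Among the 13 genes, the 2 dot1l homeologues had large falls, and the other 11 had small changes in both directions. By the edgeR threshold 6 genes were lower (dot1l.L, dot1l.S, mllt6.L, mllt6.S, mllt10.S and aff4.L), 3 were higher (mllt3.L, mllt3.S and mllt10.L) and 4 were not called. The 2 dot1l genes were chosen by their values. Of the 11 partner genes alone, 4 were lower and 3 were higher, against 20.8% and 21.7% of all tested genes. The median log2 fold change of the partners was -0.02, against -0.0022 for all tested genes, and the median size of their change without its sign was 0.25, against 0.23. The CRISPant pools lay wholly below the control pools in both dot1l genes. Among the 11 partner genes they lay wholly below in 2 and wholly above in 3, where 18.5% and 19.4% of all tested genes did so.

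**Figure D1:**
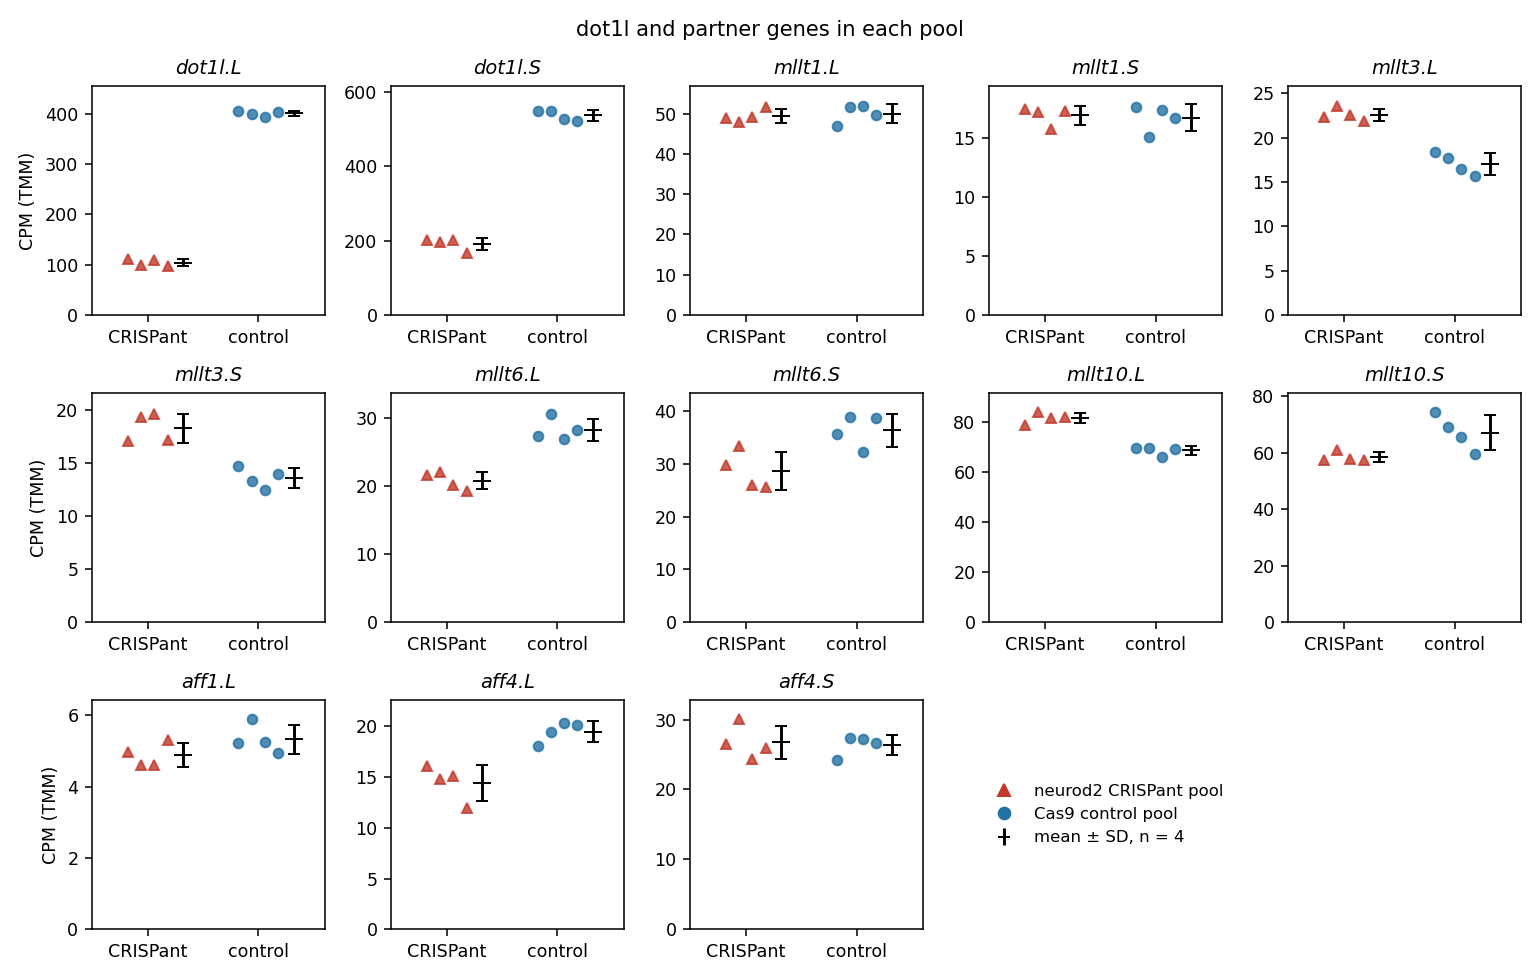
Level of each of the 13 genes in CPM (normalised by TMM, each axis from 0), with 1 point for each CRISPant pool (triangles, left) and control pool (circles, right) and the mean ± SD of 4 pools beside them. dot1l.L lies at 96.8 to 112 CPM in CRISPant pools against 393 to 406 CPM in control pools, while both mllt1 genes overlap between the groups.

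dot1l.L lies on chromosome 1L from 111967794 to 112029321 of the Xenopus_laevis_v10.1 assembly and spans 61528 bp. It had 112, 99.02, 109 and 96.8 CPM in CRISPant pools 3, 4, 7 and 9, against 406, 399.9, 393 and 403 CPM in control pools 1, 2, 4 and 5. No CRISPant pool came near the lowest control pool. These levels rest on 2091 to 2541 reads in CRISPant pools and 8583 to 10469 reads in control pools, so counting error is small beside the difference. The means were 104 ± 7.62 CPM and 400.4 ± 5.65 CPM (SD, n = 4 pools each), and the fitted level in CRISPant brains was 73.9% below that in controls (log2 fold change -1.94, standard error 0.06). Only 47 of the 25171 tested genes had a lower log2 fold change.

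dot1l.S lies on chromosome 1S from 93482177 to 93565955 and spans 83779 bp. It had 201, 196, 202 and 166 CPM in CRISPant pools 3, 4, 7 and 9, against 549, 548, 526 and 520.2 CPM in control pools 1, 2, 4 and 5. The groups were again far apart, and CRISPant pool 9 stood under the other CRISPant pools, as it also did for neurod2.L and neurod2.S. CRISPant pool 4 had the highest neurod2.L and neurod2.S of that group (31.1 and 45.7 CPM). Its dot1l.L, at 99.02 CPM, stood below CRISPant pools 3 and 7 (112 and 109 CPM). Whether dot1l followed neurod2 from pool to pool was not tested. The fitted reduction of dot1l.S was 64.3% (log2 fold change -1.49, standard error 0.06), and 116 tested genes had a lower log2 fold change. Without CRISPant pool 9 the log2 fold change of dot1l.S was -1.42.

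With both homeologues added, dot1l transcripts came to 313, 295, 311 and 263 CPM in CRISPant pools and to 955, 948, 919 and 924 CPM in control pools. A fit on the summed counts gave a log2 fold change of -1.66 (standard error 0.05), so that 31.6% of the control level was present in CRISPant brains.

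AF10 and AF17 are related proteins with PHD fingers whose leucine zipper binds Dot1l in mammals, and AF10 is needed there for the higher methylation states of lysine 79. For AF17, mllt6.L (chromosome 9_10L, 3022542 to 3048983) had 21.5, 22.0, 20.1 and 19.3 CPM in CRISPant pools against 27.2, 30.6, 26.9 and 28.1 CPM in control pools. The groups did not overlap, and the log2 fold change was -0.44 (standard error 0.07), which is a level 26.4% below controls. mllt6.S (chromosome 9_10S, 2745933 to 2762614) had 29.7, 33.3, 25.9 and 25.6 CPM in CRISPant pools against 35.7, 38.9, 32.2 and 38.5 CPM in control pools. Its groups overlapped, since CRISPant pool 4 was above control pool 4, and its log2 fold change was -0.34 (standard error 0.08). Both mllt6 genes lie on the chromosomes of the targeted gene, 698 kb from neurod2.L and 672 kb from neurod2.S. Whether their fall has a link to that position was not tested.

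The homeologues of mllt10, the gene of AF10, went opposite ways. mllt10.L (chromosome 6L, 26510641 to 26686054) had 79.1, 84.1, 81.7 and 82.3 CPM in CRISPant pools against 69.9, 69.7, 65.96 and 69.5 CPM in control pools, with no overlap and a log2 fold change of 0.25 (standard error 0.05). mllt10.S had 57.5, 60.9, 57.9 and 57.3 CPM in CRISPant pools against 74.3, 69.1, 65.6 and 59.6 CPM in control pools. Control pool 5 reached into the CRISPant range, and the log2 fold change was -0.20 (standard error 0.06). mllt10.S was no longer called without control pool 1, where its log2 fold change was -0.15. The sum of both homeologues was 140.2 ± 3.52 CPM in CRISPant brains and 136 ± 6.90 CPM in control brains (SD, n = 4 pools each). The fit on the summed counts gave 0.04 on the log2 scale (standard error 0.05) and was not called.

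The YEATS readers differed from each other. mllt3, the gene of AF9, was higher in both homeologues: mllt3.L (chromosome 1L, 129495918 to 129629082) had 22.3, 23.5, 22.6 and 21.8 CPM in CRISPant pools against 18.4, 17.8, 16.4 and 15.7 CPM in control pools. mllt3.S (chromosome 1S, 109304402 to 109423449) had 17.1, 19.3, 19.6 and 17.1 CPM in CRISPant pools against 14.7, 13.3, 12.5 and 13.96 CPM in control pools. Neither gene overlapped between the groups, and the log2 fold changes were 0.40 (standard error 0.08) and 0.43 (standard error 0.09), which are levels 32.3% and 34.4% above controls. The end of mllt3.L shares 3994 bp with the gene focad.L, which had 20.7 to 24.1 CPM in CRISPant pools against 16.9 to 21.8 CPM in control pools and a log2 fold change of 0.26. Whether the counts used strand is not given in the sources used here, so reads of the shared stretch could belong to either gene. Their part in the rise of mllt3.L was not tested. No gene in the annotation overlaps mllt3.S.

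For ENL, mllt1.L (chromosome 1L, 111121608 to 111144825) had 48.8, 47.9, 49.2 and 51.7 CPM in CRISPant pools against 46.8, 51.6, 51.97 and 49.6 CPM in control pools. mllt1.S (chromosome 1S, 92705926 to 92737172) had 17.5, 17.2, 15.8 and 17.3 CPM in CRISPant pools against 17.6, 15.1, 17.4 and 16.7 CPM in control pools. Both overlapped throughout, with log2 fold changes of -0.02 (95% interval -0.14 to 0.10) and 0.02 (95% interval -0.15 to 0.19).

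AFF1 and AFF4 are the scaffolds that compete with Dot1l for AF9 and ENL in mammals. aff4.L (chromosome 3L, 45238797 to 45297311) had 16.1, 14.8, 15.1 and 11.9 CPM in CRISPant pools against 18.1, 19.4, 20.3 and 20.1 CPM in control pools, with no overlap. Its log2 fold change was -0.43 (standard error 0.09), a level 25.7% below controls. aff4.S (chromosome 3S, 109486008 to 109571279) had 26.6, 30.1, 24.4 and 25.9 CPM in CRISPant pools against 24.2, 27.3, 27.3 and 26.7 CPM in control pools. The groups overlapped, and the log2 fold change was 0.02 (95% interval -0.14 to 0.18). aff1.L (chromosome 1L, 91214770 to 91321884), with 94 to 117 reads in CRISPant pools and 105 to 135 reads in control pools, was the least deeply counted of the 13 genes. It had 4.97, 4.62, 4.61 and 5.32 CPM in CRISPant pools against 5.23, 5.89, 5.26 and 4.94 CPM in control pools, and its 95% interval was the widest, from -0.39 to 0.13 around a log2 fold change of -0.13.

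**Figure D2:**
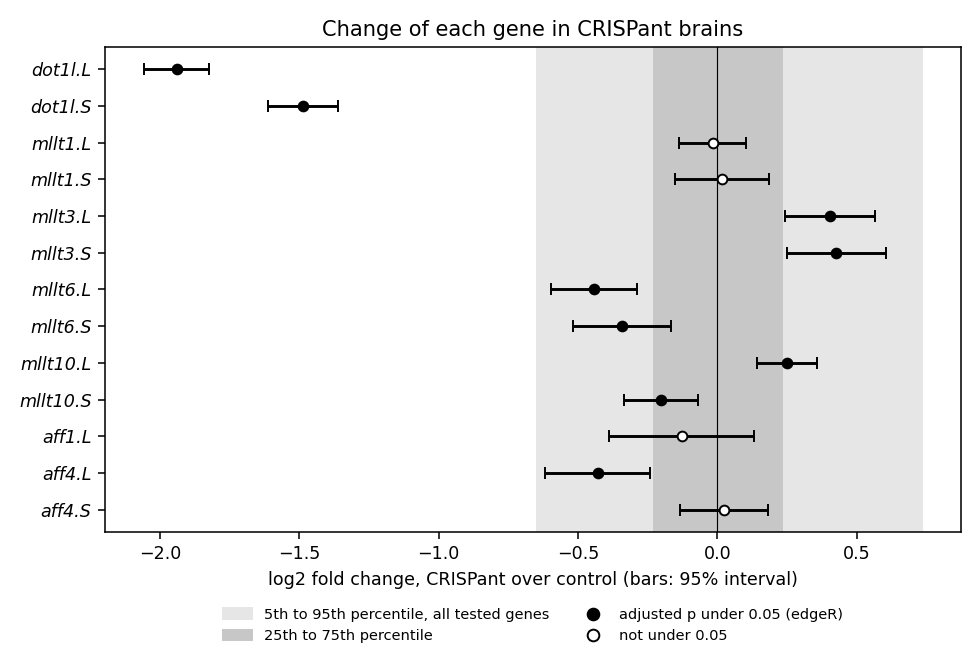
Log2 fold change of each gene in CRISPant over control brains, with its 95% interval from edgeR. Filled points are genes called at an adjusted p under 0.05, the grey bands hold the middle of all 25171 tested genes, and only dot1l.L (-1.94) and dot1l.S (-1.49) lie outside the wider band.

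The homeologues of a gene need not change by the same amount, and this was tested with limma on the ratio of L to S in every pair of homeologues with enough counts. Of 7427 pairs, 23.6% were called at an adjusted p under 0.05, and 3 of the 6 pairs here were among them (dot1l, mllt10 and aff4). The ratio of dot1l is made from the values by which dot1l was chosen. For the 6 pairs the calls are therefore descriptions, as for the single genes. The log2 ratio of dot1l.L to dot1l.S was -0.84, -0.99, -0.88 and -0.78 in CRISPant pools against -0.44, -0.45, -0.42 and -0.37 in control pools, a difference of -0.45 (standard error 0.06). The L copy thus gave 35.3% of dot1l CPM in CRISPant brains and 42.8% in control brains.

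For aff4 the ratio moved the same way, with -0.72, -1.02, -0.69 and -1.11 in CRISPant pools against -0.42, -0.49, -0.42 and -0.40 in control pools, a difference of -0.45 (standard error 0.10). For mllt10 it moved the other way, with 0.46, 0.46, 0.50 and 0.52 in CRISPant pools against -0.09, 0.01, 0.01 and 0.22 in control pools, a difference of 0.45 (standard error 0.08). In these 3 pairs the groups did not overlap, as in 28.8% of all pairs. The ratios of mllt1, mllt3 and mllt6 overlapped between the groups and differed by -0.04 (standard error 0.09), -0.02 (standard error 0.08) and -0.09 (standard error 0.07). How reads that map equally well to both homeologues were counted is not given in the sources used here.

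**Figure D3:**
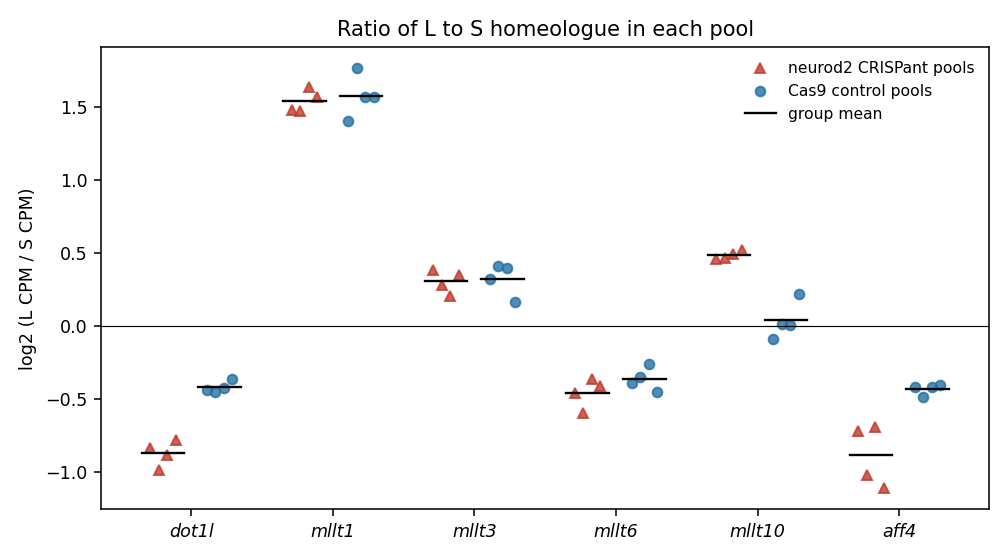
Log2 ratio of L to S homeologue in each pool, with CRISPant pools as triangles at the left and control pools as circles at the right of each gene and a line at each group mean. The ratio is lower in CRISPant pools for dot1l and aff4, higher for mllt10, and overlaps between the groups for mllt1, mllt3 and mllt6.

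Beside dot1l, 88 tested genes in 6 lists of related factors were read from the same edgeR fit. Since dot1l was chosen by its values, its distance from these genes is a description and no test. None of the 88 changed by more than 2-fold: log2 fold changes ran from -0.87 for ccnt1.S to 0.64 for eny2.L. Such changes were uncommon among all tested genes, whose 5th and 95th percentiles of log2 fold change were -0.65 and 0.73. Of the 88 genes 21 were higher, 16 were lower and 51 did not pass the test, and the median log2 fold change was 0.01. Against 42.4% of all genes tested, 37 of the 88 were called. The counts of each list below stand beside 21.7% higher and 20.8% lower over all tested genes.

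The super elongation complex and P-TEFb hold the closest relatives of the AFF proteins and the proteins they gather. Of 25 tested genes 4 were higher, 4 were lower and 17 did not pass. The lower genes were led by cyclin T1, the regulatory partner of Cdk9 in P-TEFb: ccnt1.S had 39.99, 36.8, 40.99 and 38.1 CPM in CRISPant pools against 73.8, 69.3, 66.9 and 74.7 CPM in control pools, with no overlap (adjusted p = 7.2e-10 from edgeR, log2 fold change -0.87 with a standard error of 0.06). ccnt1.L fell as well, with 15.6 CPM in CRISPant brains against 24.0 CPM in control brains (log2 fold change -0.62, adjusted p = 1.7e-05 from edgeR). The cofactor gene eaf2.S rose by 0.50 on the log2 scale (adjusted p = 1.4e-04 from edgeR), while eaf2.L had 0.04 and did not pass. larp7.L, whose product binds the 7SK RNA that holds P-TEFb inactive, rose with 0.41 (adjusted p = 3.6e-04 from edgeR). The kinase itself had log2 fold changes of 0.19 for cdk9.L, which passed, and -0.01 for cdk9.S, which did not.

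Ubiquitin on histone H2B stimulates Dot1l, and the PAF1 complex helps to place it. Of 11 tested PAF1 complex genes 2 were higher (skic8.S with a log2 fold change of 0.52 and skic8.L with 0.22), 1 was lower (cdc73.L with -0.18) and 8 did not pass. Of 20 genes for adding or removing ubiquitin on H2B, 5 were higher and 5 were lower, near the shares of 21.7% and 20.8% over all tested genes. On the adding side, ube2b.L fell with -0.42 (adjusted p = 1.2e-04 from edgeR) while its homeologue ube2b.S rose with 0.28. wac, which encodes an adaptor of the ligase, fell in both homeologues, with -0.26 for wac.L and -0.15 for wac.S. The ligase genes themselves had -0.06 for rnf20.L and -0.24 for rnf40.L, which did not pass, and -0.39 for rnf40.S, which did. On the removing side, usp44.L, usp44.S and usp49.S had log2 fold changes of 0.17, -0.08 and 0.14, and none passed. The other removing genes belong to the SAGA deubiquitinase, whose catalytic subunit is encoded by usp22. Here eny2.L rose with 0.64 (adjusted p = 1.1e-04 from edgeR), eny2.S with 0.52, atxn7l3.L with 0.36 and usp22.L with 0.32, while atxn7.L fell with -0.39 (adjusted p = 2.9e-04 from edgeR). Their homeologues atxn7l3.S, usp22.S and atxn7.S had -0.05, -0.16 and -0.28 and did not pass.

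Of 10 genes for other proteins that bind Dot1l, AF9 or ENL in mammals, 3 were higher and 3 were lower. ctnnb1.S, a beta-catenin gene, had 576 to 595 CPM in CRISPant pools against 682 to 753 CPM in control pools. It fell with -0.29 (adjusted p = 7.2e-05 from edgeR), while trrap.L rose with 0.25 and skp1.S with 0.20. Their homeologues differed: ctnnb1.L had 0.02 and did not pass, trrap.S rose with 0.15 and skp1.L fell with -0.15. cbx8.L fell with -0.24 (adjusted p = 0.020 from edgeR). Among 19 general elongation factors of RNA polymerase II, 7 were higher and 3 were lower. supt16h, which encodes a subunit of the histone chaperone FACT, rose in both homeologues, with 0.54 for supt16h.S (adjusted p = 2.2e-07 from edgeR) and 0.42 for supt16h.L. The gene of the other subunit, ssrp1.S, had a log2 fold change of 0.14, which missed the threshold (edgeR adjusted p = 0.053). Also higher were supt4h1.S with 0.39, supt4h1.L with 0.37, nelfcd.L with 0.31, tcea1.L with 0.24 and nelfe.L with 0.19. The homeologues tcea1.S and nelfe.S had 0.01 and 0.11 and did not pass. setd2, which encodes the methyltransferase for lysine 36 of histone H3, fell in both homeologues, with -0.36 for setd2.S and -0.13 for setd2.L. tcea2.S fell with -0.49. The other YEATS genes, yeats2.L, yeats4.L and yeats4.S, had log2 fold changes of -0.07, 0.22 and 0.11, and none passed.

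**Figure D4:**
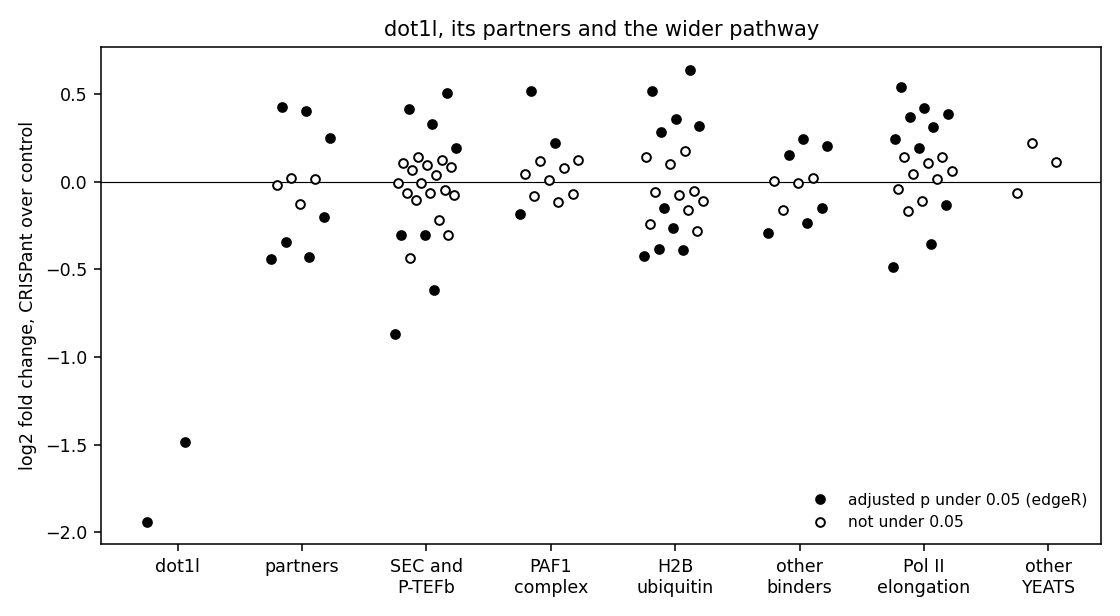
Log2 fold change in CRISPant over control brains for dot1l, its 11 partner genes and 88 genes in 6 lists of related factors (1 point a gene, filled where the adjusted p from edgeR was under 0.05). The 2 dot1l genes lie at -1.94 and -1.49, while the next lowest is ccnt1.S at -0.87.

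The genes around dot1l had no fall of this size on either chromosome. Within 1 Mb of dot1l.L, 26 other genes were tested, of which 6 were higher, 3 were lower and 17 did not pass. Within 1 Mb of dot1l.S there were 24, of which 5 were higher and 4 were lower. Over all tested genes, 21.7% were higher and 20.8% were lower. The median log2 fold changes around dot1l.L and dot1l.S were 0.09 and 0.05, and no neighbour was lower by more than 2-fold. Falls of that size were rare anywhere, as the 1st and 5th percentiles of all tested genes were -1.18 and -0.65. With dot1l chosen by its values, whether its fall is particular to the locus was not tested. Nearest to dot1l.L on its sides were plekhj1.L at 2452 bp and LOC108712868 at 136 bp, with log2 fold changes of -0.12 and -0.44, which did not pass. Beside dot1l.S lay LOC108706871 at 4213 bp, which fell with -0.50 (adjusted p = 0.016 from edgeR), and ap3d1.S at 31836 bp with 0.07, which did not pass. The partner gene mllt1 is one of these neighbours in both subgenomes, 823 kb from dot1l.L and 745 kb from dot1l.S.

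**Figure D5:**
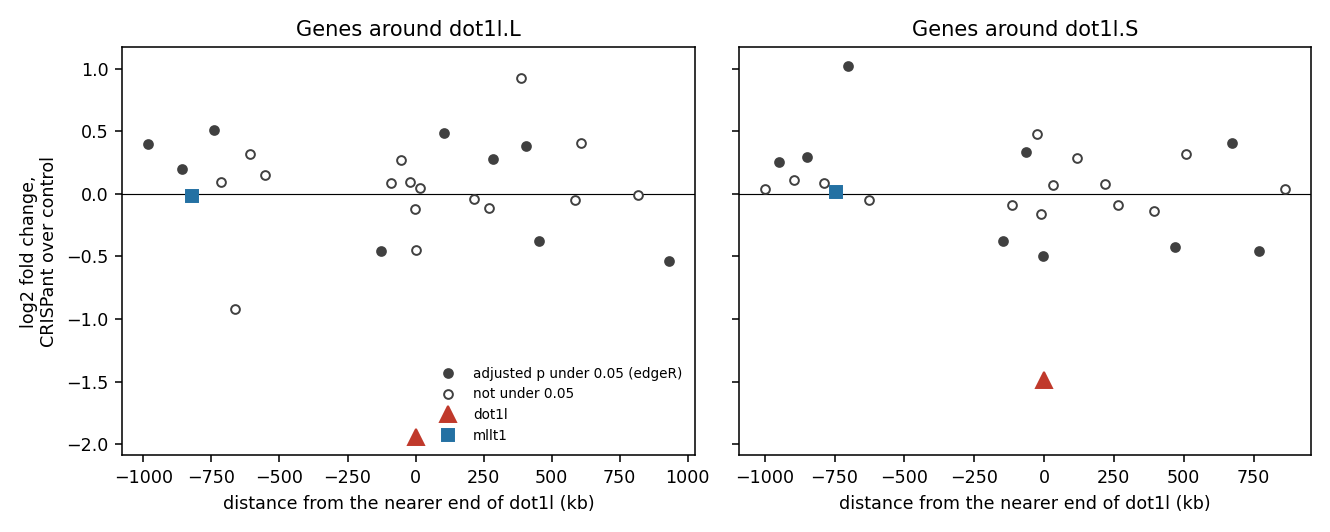
Log2 fold change in CRISPant over control brains of the tested genes within 1 Mb of dot1l.L (left panel) and dot1l.S (right panel), by distance in kb from the nearer end of dot1l. dot1l (triangles, -1.94 and -1.49) lies below each of its neighbours, and mllt1 (squares) lies near 0 in both panels.

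Some other genes had a similar profile over the 8 pools. Likeness was measured as the root mean square difference of log2 CPM after each gene was centred on its own mean, over 20384 genes with a gene symbol, so it mostly reflects the size of the difference between the groups. For dot1l.L the closest were the histone demethylase genes kdm7a.L (0.12) and kdm6b.L (0.14), the kinase gene hipk2.S (0.16), bicral.S (0.18) and aldh1l1.L (0.19), which encodes an enzyme of folate metabolism and is one of the astroglia markers that were lower. For dot1l.S they were srsf5a.L (0.08), a splicing factor gene, jarid2.S (0.09), a partner of Polycomb repressive complex 2, ippk.S (0.09), a kinase gene of inositol phosphates, the clock gene cry2.L (0.11) and ccnp.L (0.11). The match of ccnp.L rests on low levels, 0.79 CPM in CRISPant brains and 2.32 CPM in control brains. Between dot1l.L and dot1l.S the difference was 0.23. jarid2.S had 309 CPM in CRISPant brains against 889.9 CPM in control brains, beside 191 CPM and 536 CPM for dot1l.S.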

How the data were processed

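The deposited table holds raw read counts per gene, with no normalisation. Per the authors' methods, single reads from stranded mRNA libraries were aligned by DRAGEN to XENLA_10.1 and counted by FeatureCounts, whose strand and multi-mapping settings are not given in the sources used here. Columns were assigned to samples through the library names in the labels. No pair of pools in a group was as alike as repeat counts of 1 library would be.

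In R 4.3.3, edgeR 4.0.16 was used: filterByExpr (minimum count 10), TMM, then the quasi-likelihood test (robust) with condition as the sole term over all 25171 tested genes, with Benjamini-Hochberg adjustment. Standard errors were the log2 fold change without its sign, divided by the root of F. Ratios of L to S used log2 CPM (prior count 2) and limma 3.58.1. Coordinates came from RefSeq (Xenopus_laevis_v10.1), where 12 of the 13 genes matched by symbol. The fits were tested on simulated data. Alternatives were median of ratios size factors, DESeq2 1.42.0, all genes with any count, a floor of 1 CPM in 4 pools, no robust option, summed homeologues, a prior count of 0.5 and each pool left out.

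The members, lists and tests were chosen with earlier results of these data known. The text names all members, up to 4 genes of smallest p in a list and the 5 genes closest to each dot1l gene. Other list genes (such as cdk9, eaf2.L, rnf20, rnf40, wac.S, cbx8, ssrp1, setd2.L, supt4h1, nelfe, tcea1, tcea2, usp22, usp44, usp49, atxn7l3, ctnnb1.L, trrap.S and skp1.L) and the neighbours were chosen after their values were seen. Promoter motifs were not analysed here.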

Additional observations from a re-analysis of the deposited data

Results flagged for a closer look

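The pools of each group were examined for 126 genes (the 13 members, both neurod2 genes, the 10 genes of most similar profile, the 88 tested pathway genes, focad.L and the 12 tested genes nearest to dot1l) and for 6 homeologue ratios. In 8 of these 264 groups of 4 pools, the gap of 1 pool to the nearest other pool was, relative to the whole range, above Dixon's 95% critical value, which chance alone gives in about 1 in 20. dot1l.S was at 166 CPM in CRISPant pool 9, under the 196 to 202 CPM of the other CRISPant pools. mllt1.S was at 15.8 CPM in CRISPant pool 7, under the 17.2 to 17.5 CPM of the others. mllt10.S was at 60.9 CPM in CRISPant pool 4, above the 57.3 to 57.9 CPM of the others. mllt10.L was at 65.96 CPM in control pool 4, under the 69.5 to 69.9 CPM of the other control pools. Among the pathway genes, supt6h.L was at 54.5 CPM in CRISPant pool 7, under the 67.0 to 68.8 CPM of the other CRISPant pools, and usp22.S was at 31.9 CPM in CRISPant pool 9, above the 25.3 to 26.0 CPM of the others. In control pool 4, ell3.L was at 4.14 CPM, under the 5.22 to 5.42 CPM of the other control pools. In control pool 5, ube2a.L was at 34.7 CPM, under the 38.5 to 39.2 CPM of the others.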

How the results depend on the processing

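Between 9437 and 10500 genes were called when a pool was left out, against 10677 with all pools, and between 10222 and 10850 under the other settings. The number of members called lower was 5 or 6 and the number called higher was 3 under all 13 of these settings. dot1l.L had a log2 fold change between -1.98 and -1.90 with a pool left out and dot1l.S between -1.51 and -1.42. Of the elongation list 7 to 9 genes were called with a pool left out, against 8 with all pools, and of the PAF1 and H2B ubiquitination lists together 10 to 13, against 13. The calls of the ratio of L to S for dot1l, mllt10 and aff4 held with each pool left out, with 1266 to 1418 pairs called against 1756.

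Signs turned only for members and ratios that were not called, and for summed counts. The log2 fold change of aff4.S ran from -0.040 (without CRISPant pool 4, and also below 0 without control pool 1) to 0.065, that of mllt1.S from -0.030 (without control pool 2) to 0.048, and that of mllt1.L from -0.049 to 0.00041 (without control pool 4). The difference in the ratio ran from -0.094 to 0.026 (without control pool 2) for mllt1 and from -0.072 to 0.016 for mllt3, where it was above 0 without CRISPant pool 7, control pool 2 or control pool 4. With the counts of homeologues summed, the log2 fold change was -0.0095 for mllt1, 0.044 for mllt10 and -0.15 for aff4, and none of these sums was called, although mllt10.L, mllt10.S and aff4.L were. No paired analysis was possible because the groups share only the pool number 4. The depth of aff1.L limits how closely its change is known, with a 95% interval of -0.39 to 0.13 on the log2 scale.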
